A study of Mus musculus with 4 samples.

Results

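Of 35 genes that cells induce when oxygen is short and that do not encode glycolytic enzymes, 32 could be read on the arrays, and most of them stood higher in Tbx1 knockout than in wild-type palatal shelves, while in the head the differences were small. The genes were chosen by name, as known targets and regulators of the hypoxia-inducible factors (HIFs), with earlier results of these data known. Their values were taken from transcript clusters that carry 1 gene symbol, averaged per gene. The genes read are 32 of 22180 genes named in this way. Bnip3l, Loxl2 and Ankrd37 lay only on transcript clusters annotated to several genes and are not given. The samples were Tbx1 knockout and wild-type palatal shelves at E13.5, the paired tissue that fuses into the roof of the mouth, and Tbx1 knockout and wild-type heads at E12.5, all from mouse embryos of a mixed C57BL/6J x FVB/N background. Tbx1 encodes a T-box transcription factor of the pharyngeal region. Each of the 4 groups was 1 Affymetrix Mouse Gene 2.0 ST array. The labels name neither the Tbx1 allele nor the sex, and they do not say whether tissue of several embryos was pooled.

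HIFs are pairs of an oxygen-regulated alpha subunit (Hif1a, Epas1 or Hif3a) and a stable partner, Arnt. When oxygen is present, prolyl hydroxylases of the Egln family modify the alpha subunit, the product of Vhl binds the modified protein, and it is degraded. When oxygen falls, the alpha subunit persists and raises transcription of genes for blood vessel growth, glucose uptake, acid export, mitochondrial turnover and collagen maturation, so the pathway is read from its targets more than from the RNA of its subunits. Some targets, Egln3 among them, feed back on the pathway.

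Levels below are log2 expression after RMA, the authors' normalization, and each difference is the knockout array minus the wild-type array on that scale. With 1 array per group a difference within a pair has no replicate check and no test, and the small number of arrays limits the precision. Differences are therefore counted from 1.5-fold (a log2 difference of 0.58) and from 2-fold, beside the share of all genes that go as far. Counts and fits use the 11148 genes whose mean over the 4 arrays reached log2 6.16, the median of all named gene values, and 29 of the 32 genes did so. Ndrg1 reached it only with its knockout shelf array counted. Adm, Car9 and Stc2 did not, and dim genes have compressed differences. Where a gene had a pair of bright transcript clusters, their disagreement gave an SD per cluster of 0.226 in the shelves and 0.163 in the head (228 genes). This is the SD between the paired clusters divided by the square root of 2, so the clusters of a pair disagreed by more. The tissue is bulk, so more cells of a type and more RNA per cell cannot be told apart.

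Tbx1 read 6.18 in knockout and 7.39 in wild-type shelves, and 6.25 in knockout and 6.83 in wild-type heads. The labels do not say whether its probes lie in the deleted part. The 7 palatal mesenchyme markers averaged 9.67 and 9.52 in knockout and wild-type shelves, above their 8.44 and 8.47 in knockout and wild-type heads. The pair of shelf arrays correlated over all transcript clusters with a Pearson's r of 0.988 and the pair of head arrays with 0.991.

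In the palatal shelves, the knockout exceeded wild type by 1.5-fold or more in 13 of the 29 genes (44.8%) and in 1.99% of the 11148 genes. It did so by 2-fold or more in 4, Bnip3, Slc2a3, Vegfa and Egln3, and in 0.457% of all genes. None of the 29 was 1.5-fold lower, whereas 0.807% of all genes were. The median difference of the 29 was 0.54, against 0.025 over all genes, and 28 of them lay above 0, as did 56.1% of all genes. With the 3 dim genes included, 15 of 32 passed 1.5-fold, as did 1.71% of the 22180 named genes. The list was chosen with earlier results of these data known, so these shares describe it and do not test it. Egln1, at 0.59, lay just inside the 1.5-fold limit, and Ak4 and Car12, at 0.54 each, just outside.

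**Figure D1:**
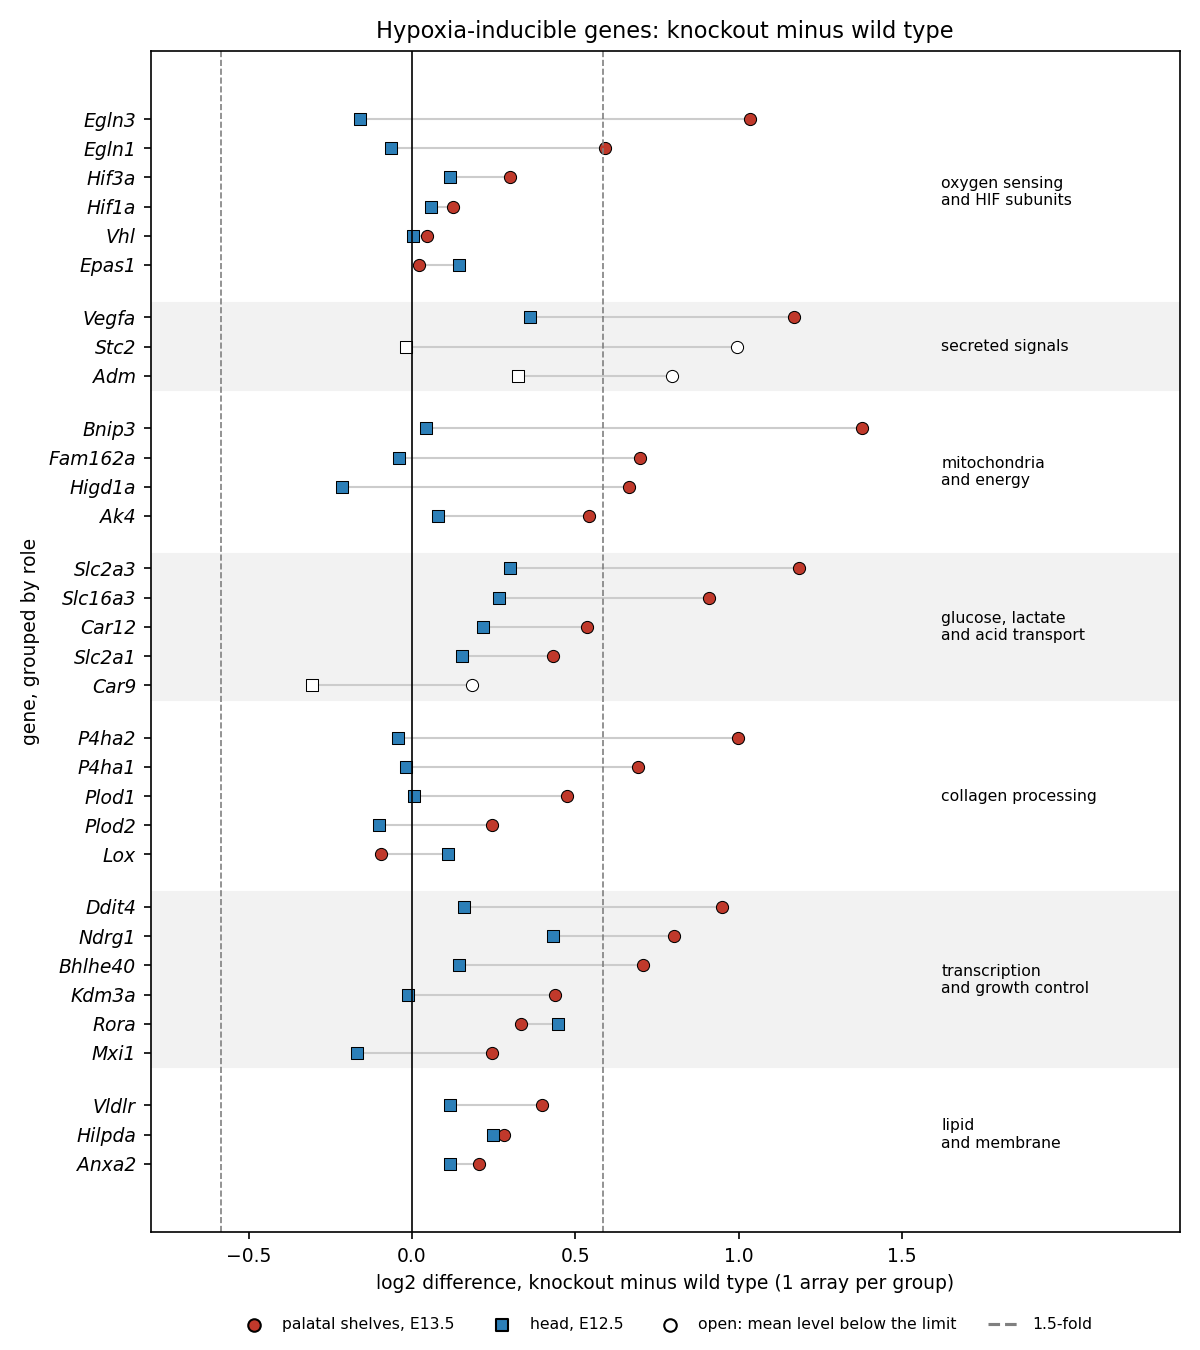
Log2 difference, knockout minus wild type, of each of the 32 genes (rows, grouped by role) in the palatal shelves at E13.5 (circles) and in the head at E12.5 (squares), 1 array per group. Dashed lines mark 1.5-fold and open symbols the 3 genes below the level limit; 15 circles and no square lie at or beyond 1.5-fold higher.

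Among genes of mitochondria and energy supply, Bnip3 had the largest shelf difference of the 32. Bnip3, an outer membrane receptor that marks mitochondria for removal by autophagy, read 8.45 in knockout shelves and 7.07 in wild-type shelves, and 6.91 in knockout head and 6.86 in wild-type head. The shelf difference of 1.38 is 2.60-fold and was the 21st highest of the 11148 genes. The knockout shelf array stood alone, with the other 3 arrays close together. Fam162a, a mitochondrial protein tied to cell death in hypoxia, read 9.67 and 8.98 in knockout and wild-type shelves, and 8.39 and 8.43 in knockout and wild-type heads. Higd1a, a small inner membrane protein that associates with the respiratory chain, read 8.21 and 7.55 in knockout and wild-type shelves, and 7.16 and 7.38 in knockout and wild-type heads. These genes differed by 0.70 and 0.66 in the shelves, and neither was higher in the knockout head. Ak4, an adenylate kinase of the mitochondrial matrix, had a shelf difference of 0.54 and a head difference of 0.08.

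Of the 4 genes of glucose uptake and acid export above the level limit, Slc2a3 and Slc16a3 passed 1.5-fold in the shelves and Slc2a1 and Car12 did not. Slc2a3, the high-affinity glucose transporter GLUT3 of neurons and early embryos, read 8.34 in knockout and 7.15 in wild-type shelves, and 8.13 in knockout and 7.83 in wild-type heads. Its shelf difference was 1.18 (2.27-fold), and the wild-type shelf array was the low one of the 4. Slc16a3, the lactate exporter MCT4, read 7.78 and 6.87 in knockout and wild-type shelves, and 6.82 and 6.56 in knockout and wild-type heads, a shelf difference of 0.91. Slc2a1, the widespread glucose transporter GLUT1, had a difference of 0.43 as the mean of its transcript clusters, which disagreed. Its bright cluster read 11.04 in knockout and 10.32 in wild-type shelves, a difference of 0.71, and its dim cluster gave 0.15. Carbonic anhydrases at the cell surface help to export acid, and of these Car12 read 7.36 and 6.83 in knockout and wild-type shelves. Car9, which is among the most oxygen-sensitive HIF targets in many cells, was dim on all 4 arrays, with 5.61 in knockout and 5.43 in wild-type shelves.

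Of the secreted signals, Vegfa, the main growth factor for blood vessels, read 10.05 in knockout and 8.88 in wild-type shelves, and 8.96 in knockout and 8.60 in wild-type heads. It was 2.25-fold higher in the knockout shelves (1.17) and 1.28-fold higher in the knockout head (0.36), so it was higher in the knockout in both pairs. Stc2, a secreted glycoprotein of the stanniocalcin family, was dim, with 6.62 in knockout and 5.63 in wild-type shelves, and 5.96 in knockout and 5.98 in wild-type heads. Adm, the precursor of the vasodilator peptide adrenomedullin, read 5.56 and 4.77 in knockout and wild-type shelves, and 4.75 and 4.43 in knockout and wild-type heads. Both fell below the level limit and enter no count over the 29.

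Of the enzymes that mature collagen, the prolyl hydroxylases differed most. P4ha2, a catalytic subunit of the prolyl 4-hydroxylase that stabilises the collagen helix, read 8.09 in knockout and 7.10 in wild-type shelves, and 6.37 in knockout and 6.41 in wild-type heads. P4ha1, the alternative catalytic subunit, read 9.84 and 9.15 in knockout and wild-type shelves, and 8.57 and 8.59 in knockout and wild-type heads. Their shelf differences were 0.998 and 0.69, and their head differences -0.044 and -0.017. The lysyl hydroxylases, which prepare collagen for cross-linking, differed by 0.48 (Plod1) and 0.24 (Plod2) in the shelves. Lox, the oxidase that starts the cross-links outside the cell, was the only 1 of the 32 lower in the knockout shelves, at 9.92 against 10.02 in wild type.

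Among regulators of transcription and growth, Ddit4, Ndrg1 and Bhlhe40 passed 1.5-fold. Ddit4, an inhibitor of the growth kinase complex mTORC1, read 9.02 in knockout and 8.07 in wild-type shelves, and 8.17 in knockout and 8.01 in wild-type heads. Ndrg1, a stress-induced gene, read 7.34 and 6.54 in knockout and wild-type shelves, and 6.14 and 5.71 in knockout and wild-type heads, as the mean of a bright and a dim cluster. The bright cluster alone read 9.61 in knockout and 8.60 in wild-type shelves, a difference of 1.01, and had a head difference of 0.15, so the 0.43 of the mean in the head came mostly from the dim cluster (0.71). Bhlhe40, a basic helix-loop-helix repressor, read 8.81 and 8.10 in knockout and wild-type shelves, and 7.28 and 7.14 in knockout and wild-type heads. The shelf differences of these genes were 0.95, 0.80 and 0.71. Kdm3a, a demethylase of histone H3, stood at 0.44, the nuclear receptor gene Rora at 0.33 and Mxi1, an antagonist of Myc, at 0.25, all short of 1.5-fold. Of the genes of lipid storage and membranes, Vldlr, a lipoprotein receptor, was at 0.40, Hilpda, an inhibitor of lipid droplet breakdown, at 0.28 and the annexin Anxa2 at 0.20.

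In the oxygen-sensing machinery, the hydroxylase genes had larger differences than the factors and Vhl. Egln3 read 8.66 in knockout and 7.62 in wild-type shelves, and 7.38 in knockout and 7.54 in wild-type heads, a shelf difference of 1.04 (2.05-fold). Egln1, the main HIF prolyl hydroxylase, read 9.17 and 8.58 in knockout and wild-type shelves, and 8.74 and 8.80 in knockout and wild-type heads. Both hydroxylase genes were thus higher in the knockout shelves and slightly lower in the knockout head. The factors were short of 1.5-fold. Hif1a averaged 7.24 and 7.11 in knockout and wild-type shelves, and 7.13 and 7.07 in knockout and wild-type heads. Its bright cluster read 9.23 in knockout and 9.39 in wild-type shelves, a difference of -0.17, whereas its dim cluster gave 0.42. Epas1, which encodes HIF-2 alpha, read 7.25 in knockout and 7.23 in wild-type shelves, and 7.35 in knockout and 7.20 in wild-type heads. Vhl read 7.41 and 7.37 in knockout and wild-type shelves, and 7.53 in both heads. Hif3a, whose product includes forms that restrain the other factors, read 9.20 and 8.90 in knockout and wild-type shelves, and 8.18 and 8.06 in knockout and wild-type heads.

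**Figure D2:**
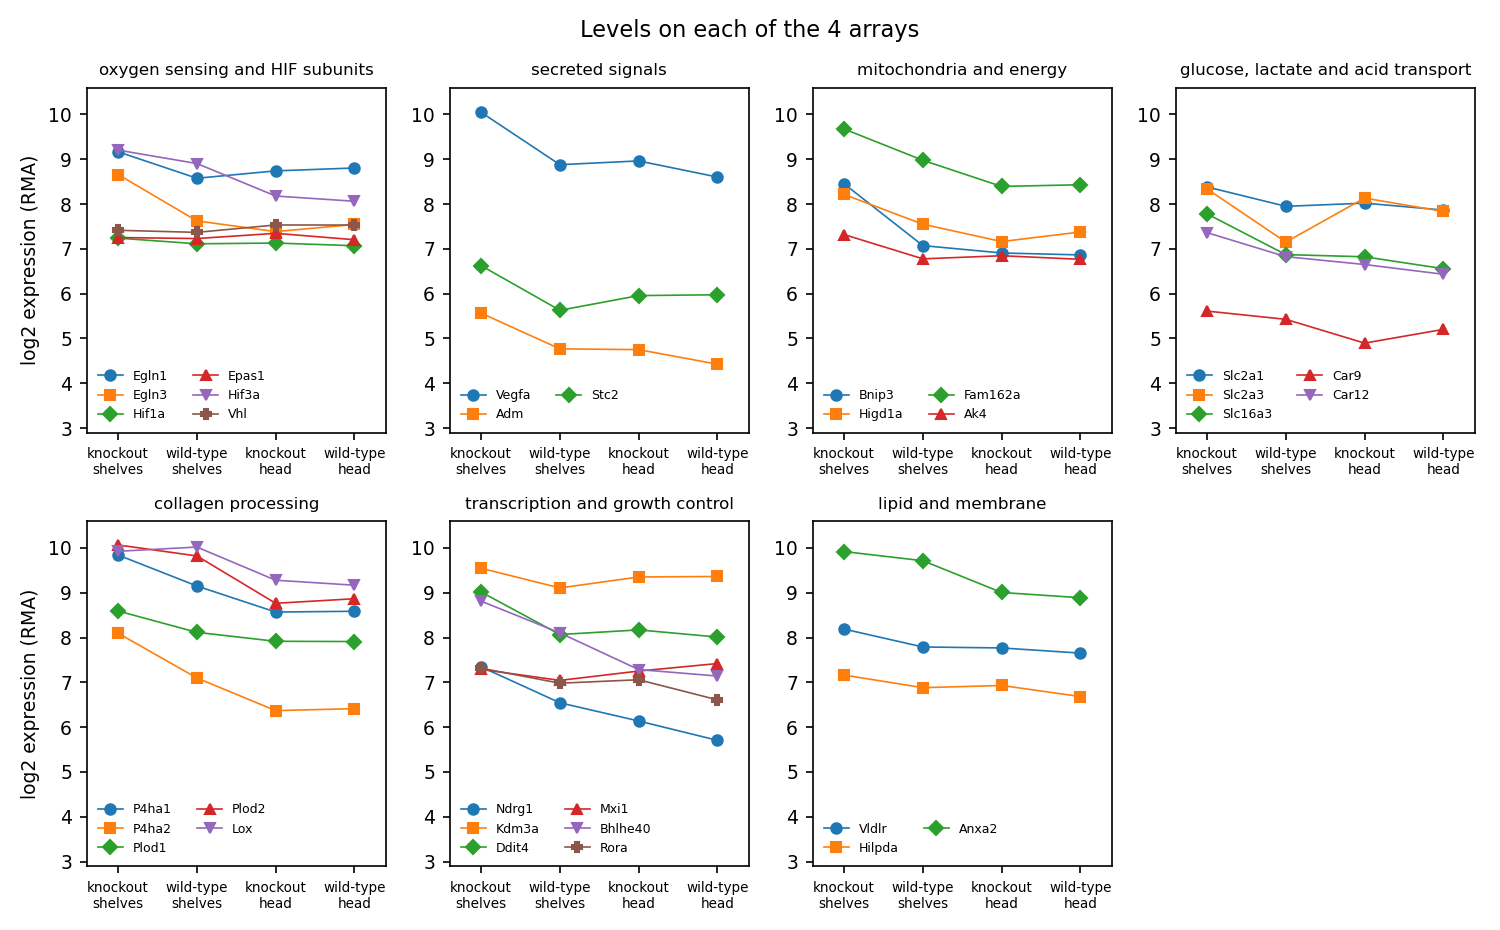
Log2 expression (RMA) of the 32 genes on each of the 4 arrays, 1 panel per role, with lines joining the values of 1 gene. Levels can be compared along a line and not between genes; the knockout shelf array is the highest of the 4 for 28 of the 32 genes, and for 23.4% of all named genes, and for Epas1, Vhl, Lox and Mxi1 another array is.

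In the head the same genes gave no difference of 1.5-fold in either direction, where 0.0718% of all genes were that much higher and 0.26% that much lower. Their median difference was 0.11, against -0.016 over all genes, and 20 of the 29 lay above 0, as did 44.4% of all genes. Rora, at 7.06 in knockout and 6.61 in wild-type heads, had the largest head difference (0.45), and Higd1a the lowest among the 29 (-0.21). Over the 15 genes past 1.5-fold in the shelves, the head differences ran from -0.21 to 0.43 with a median of 0.043, and over the other 17 from -0.31 to 0.45 with a median of 0.11. Rora, Ndrg1 and Vegfa led in the head, and of these Ndrg1 and Vegfa had also passed 1.5-fold in the shelves. The head difference of Ndrg1 came mostly from its dim cluster. Whether the difference of the pairs exceeds the error was not tested, since an interaction leaves no residual degree of freedom, and stage differs along with tissue.

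**Figure D3:**
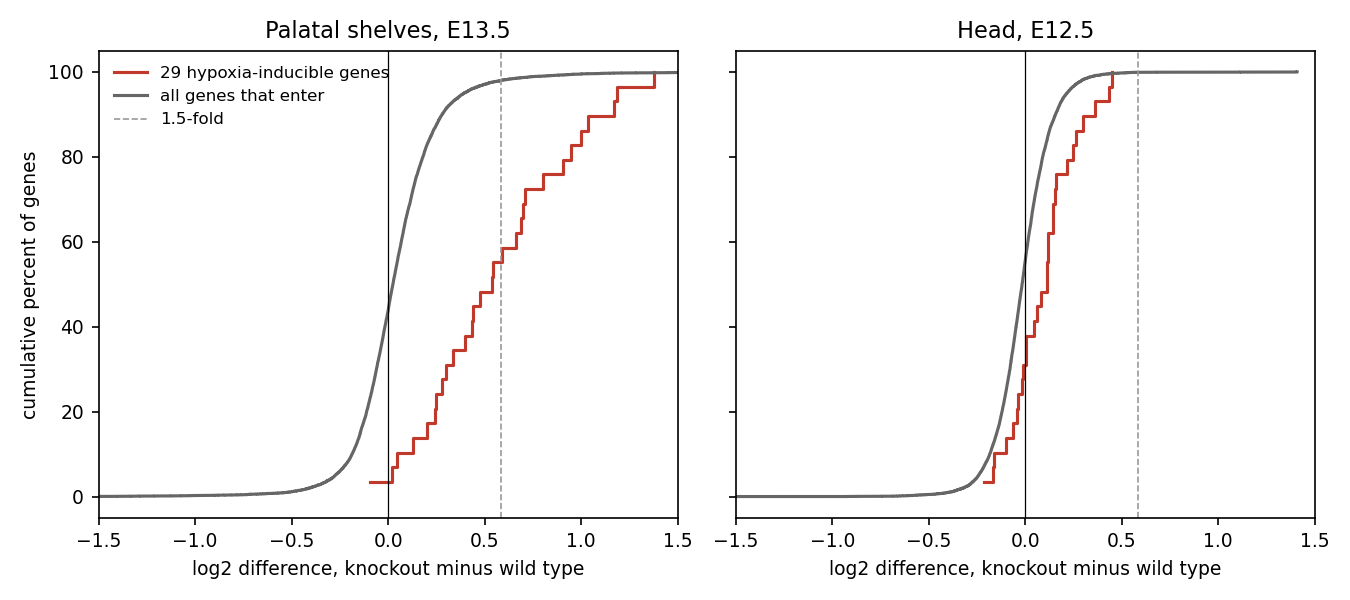
Cumulative percent of genes by log2 difference, knockout minus wild type, for the 29 hypoxia-inducible genes and for all 11148 genes, in the palatal shelves at E13.5 (left) and the head at E12.5 (right). In the shelves the curve of the 29 genes lies far to the right (median 0.54 against 0.025), and in the head the curves lie closer (median 0.11 against -0.016).

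A fit over both pairs did not call any of these genes. The additive limma model, with genotype and tissue as terms and Benjamini-Hochberg adjustment over 11148 genes, set 2 knockout arrays against 2 wild-type arrays with 1 residual degree of freedom, and it counts any disagreement of the pairs as error. Ndrg1 had the smallest adjusted p of the 29, with a log2 difference of 0.62 (SE 0.12) and a limma adjusted p of 0.435. With the brightest cluster of each gene its limma adjusted p was 0.850, as were those of Vegfa and Bnip3. Vegfa had a difference of 0.76 (SE 0.17, limma adjusted p 0.772), and Bnip3 one of 0.71 (SE 0.26, limma adjusted p 0.802). Of the 29 genes, 13 had an unadjusted limma p under 0.05 with the knockout higher, where 3.57% of all genes had, and 0 with the knockout lower, where 2.24% had. Over all 11148 genes the fit called 0 (0.0% each way), and 648 were below an unadjusted p of 0.05.

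Many of the genes were also read higher in the shelves than in the head. The shelves were E13.5 and the heads E12.5, so tissue and stage cannot be told apart. In the same fit 16 of the 29 rose in the shelves relative to the head at a limma adjusted p under 0.05, where 14.1% of all genes did, and 0 fell, where 16.1% of all genes did. The largest was Bhlhe40 with a log2 difference of 1.24 (SE 0.14, limma adjusted p 0.000329), followed by P4ha2 with 1.21 (SE 0.21, limma adjusted p 0.00315), Plod2 with 1.13 (SE 0.12, limma adjusted p 0.000204) and Ndrg1 with 1.02 (SE 0.12, limma adjusted p 0.000374). Over 8 alternative settings, 9 to 17 of the hypoxia-inducible genes were called. The coefficient of shelves against head averages over genotype, and the genotypes differed. In the knockout, 17 of the 29 were at least 1.5-fold higher in shelves than in head, where 7.27% of all genes were, and 11 at least 2-fold, where 2.43% were. In the wild type, 7 were, namely P4ha2, Plod2, Ndrg1, Bhlhe40, Lox, Hif3a and Anxa2, where 6.39% of all genes were. Bnip3, Vegfa and Egln3 passed 1.5-fold in the knockout and not in the wild type, with shelf minus head differences of 1.54, 1.08 and 1.27 in the knockout and 0.21, 0.28 and 0.078 in the wild type. Slc2a3 was the 1 gene at least 1.5-fold lower in wild-type shelves than in wild-type head (-0.68), as 9.54% of all genes were. The comparisons share arrays, so these counts are not independent of the knockout differences above.

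The letters of the HIF binding core were common in the promoters of these genes. Because the genes were chosen by name as known HIF targets and regulators, a high share was likely before any array was read. HIFs bind DNA at ACGTG or GCGTG, and windows from 250 bases before to 50 after each RefSeq start (GRCm38.p6) were searched on both strands. A window was listed for 26 of the 32 genes, and 23 of the 26 (88.5%) had a match in at least 1 window, against 68.4% of 8787 genes above the level limit and 46.7% of all 27025 genes with a window. With a following C (ACGTGC or GCGTGC) the shares were 69.2%, 30.8% and 18.1%. Both cores contain CG, and windows of these genes held a median of 25 CG pairs, against 21 in windows of genes above the level limit and 7 in all windows, so base composition differs along with the match. ACGTG also forms part of CACGTG, the E-box bound by other basic helix-loop-helix factors, which 3 of the 26 genes (11.5%) held, against 11.45% of genes above the level limit. Shelf differences had a median of 0.59 in the 23 genes with a match, and the 3 without one, Car12, Vhl and Vldlr, read 0.54, 0.046 and 0.40. The 6 genes with no listed window had a median of 0.48 and ran from -0.094 to 1.18. The windows of Bnip3 and Egln3 are shown, because both genes differed by over 2-fold in the shelves, with matches to either core on either strand in capitals.
Bnip3, chr7:138909457-138909756, minus strand, GRCm38.p6, RefSeq: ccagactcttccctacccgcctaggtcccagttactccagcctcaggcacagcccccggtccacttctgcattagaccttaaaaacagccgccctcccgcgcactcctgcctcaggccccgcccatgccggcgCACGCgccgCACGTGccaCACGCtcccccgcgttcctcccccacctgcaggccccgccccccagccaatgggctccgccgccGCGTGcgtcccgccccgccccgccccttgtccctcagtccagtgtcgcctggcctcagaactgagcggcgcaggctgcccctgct
Egln3, chr12:54203825-54204124, minus strand, GRCm38.p6, RefSeq: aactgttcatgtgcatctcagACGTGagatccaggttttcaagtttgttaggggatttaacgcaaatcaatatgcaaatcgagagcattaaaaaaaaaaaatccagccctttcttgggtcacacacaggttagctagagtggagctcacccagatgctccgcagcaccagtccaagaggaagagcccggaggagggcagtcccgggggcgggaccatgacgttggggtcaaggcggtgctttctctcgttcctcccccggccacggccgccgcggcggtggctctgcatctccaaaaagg
Bnip3 held 5 matches, of which a pair overlap in 1 CACGTG, and Egln3 held 1. Vegfa counts among the 23 through a window at a start inside the gene, which held 2 matches, and its window at the upstream start held none. A match is a run of letters and was not tested for binding.

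Components of the pathway outside the 35 genes lay near 0. Of 14 such genes above the level limit, none was 1.5-fold different in either pair, and their median difference was 0.023 in the shelves and -0.065 in the head. Of all genes 1.99% were that much higher and 0.807% lower in the shelves, and 0.0718% and 0.26% in the head. In so short a list, none lies near those shares. Arnt2, a neural partner of the alpha subunits, had a shelf difference of 0.30, Cited2, a HIF target that competes for the coactivator p300, one of 0.24, and the ubiquitin ligase gene Siah1a one of -0.31. A further list of hypoxia-inducible genes had a median of 0.20 in the shelves and 0.0099 in the head, and in 4 of its 28 genes the knockout shelves exceeded wild type by 1.5-fold or more. These were Ndufa4l2, a mitochondrial protein that restrains respiration (1.08), the glycogen genes Gys1 (0.76) and Ppp1r3c (0.74), and the stanniocalcin Stc1 (0.73). Glycolytic enzyme and pyruvate genes had a median of 0.42 in the shelves and 0.068 in the head, with Pfkp at 1.23, Hk2 at 0.98 and Pfkfb3 at 0.93. Genes driven by the stress factor ATF4 had a shelf median of 0.0074, and none of 12 was 1.5-fold different, again near the shares of all genes. ATF4 can also induce Ddit4, Stc2 and Vldlr, and its part in their differences was not tested.

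**Figure D4:**
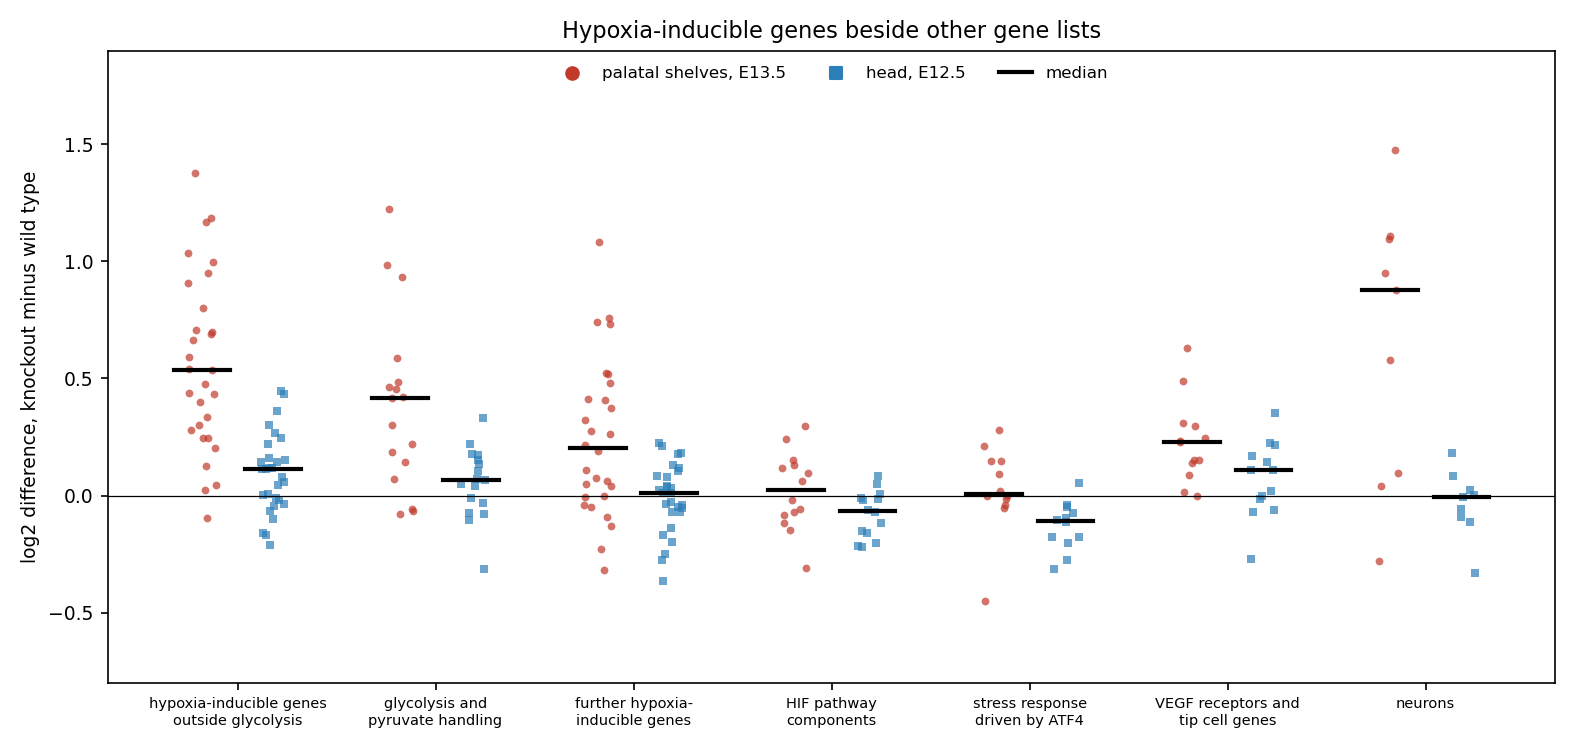
Log2 difference, knockout minus wild type, of each gene above the level limit in 7 gene lists, in the palatal shelves at E13.5 (circles, left of each pair) and the head at E12.5 (squares), with black bars at the median. The shelf medians are 0.54 for the hypoxia-inducible genes outside glycolysis, 0.42 for glycolysis and 0.88 for neurons. They are 0.20 for the further hypoxia-inducible genes, 0.23 for the endothelial list, 0.023 for pathway components and 0.0074 for the ATF4 list.

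In a list of VEGF receptor, tip cell and other endothelial genes, the receptor genes Flt1 and Kdr had shelf differences of 0.63 and 0.49. Flt1 read 7.55 in knockout and 6.92 in wild-type shelves, and 7.23 in knockout and 7.01 in wild-type heads. Kdr read 8.88 and 8.40 in knockout and wild-type shelves, and 8.96 and 8.79 in knockout and wild-type heads. Over the 13 endothelial genes above the level limit the median difference was 0.23 in the shelves and 0.11 in the head, and Flt1 alone passed 1.5-fold. The receptor genes Flt4 and Nrp1 lay at 0.0 and 0.017 in the shelves. Below the level limit, Angpt2, Dll4 and Esm1 had shelf differences of 0.43, 0.19 and -0.44. A response of endothelium to VEGF was not tested.

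Markers of other cell types also differed between the shelf arrays. The 9 neuron markers averaged 8.17 in knockout and 7.51 in wild-type shelves, and 9.92 in knockout and 9.95 in wild-type heads. In the shelves 5 of the 9 passed 1.5-fold, with a median difference of 0.88 and Ina, a neuronal intermediate filament gene, at 1.48. In knockout and in wild-type shelves all 9 lay below both head arrays. Of the 32 hypoxia-inducible genes, 29 lay above both head arrays in knockout shelves, as did 4492 (40.3%) of the 11148 genes. In wild-type shelves 18 of the 32 did, as did 4386 of the 11148. The 32 include Adm, Car9 and Stc2, which fall below the level limit, and the 11148 leave such genes out. Other lists also lay above both head arrays in knockout shelves. These were 6 of 7 palatal mesenchyme, 5 of 5 oral epithelium, 4 of 4 bone, 4 of 5 olfactory mucosa and 12 of 16 endothelial genes. Of macrophage and cartilage markers 1 of 7 and 2 of 5 did, and of neural progenitor, muscle and red blood cell markers 0 did. The 6 neural progenitor markers averaged 7.44 and 7.51 in knockout and wild-type shelves, and 9.04 and 9.14 in knockout and wild-type heads. Their median shelf difference was -0.25, with Sox1 at 1.15, Otx2 at -0.88 and the other 4 short of 1.5-fold. Skeletal muscle markers averaged 6.06 and 7.14 in knockout and wild-type shelves, and 6.58 and 7.19 in knockout and wild-type heads. Of these 8, 5 lay above the level limit, and the knockout was below wild type by 1.5-fold or more in all 5 in the shelves and in 3 in the head. The 5 olfactory mucosa markers averaged 5.95 and 8.03 in knockout and wild-type shelves, and 5.21 and 5.14 in knockout and wild-type heads. Macrophage markers averaged 6.78 and 7.17 in knockout and wild-type shelves, with 2 of 6 lower by 1.5-fold or more. Red blood cell markers averaged 7.08 in both shelf arrays, and none of the genes of palatal mesenchyme, oral epithelium, cartilage or bone was 1.5-fold different there. Of the oral epithelium genes, Krt15, at 0.57, lay just short of 1.5-fold in the shelves, and Epcam went the other way (-0.42). The part of these cell types, and of handling between dissection and freezing, in the levels of the hypoxia-inducible genes was not tested.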

How the data were processed

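Affymetrix Mouse Gene 2.0 ST arrays read the RNA of 4 samples. Per the labels' protocols, TRIzol and a column kit were used on frozen tissue, and 100 ng of total RNA was labelled. The authors deposited log2 expression per transcript cluster, summarised by RMA in Affymetrix Expression Console, as the submitters' processing notes list. Its version, build and annotation were not given in the sources used here. The method brings arrays to 1 distribution and so hides a shift of most genes. Arrays hold no read depth.

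Of 41345 clusters, 23521 had 1 gene symbol in the platform annotation, 1814 had several and 16010 had no listed gene. By Entrez identifier 23328 matched a RefSeq gene table (GRCm38.p6), and 0 symbols changed. Clusters of a gene were averaged, giving 22180 genes. Groups come from the sample titles. Another label calls the E13.5 samples heads, against their title and tissue. The labels do not say that samples are separate animals, so residual spread describes these arrays.

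The members, gene lists and tests were chosen with earlier results of these data known. Every member is accounted for. Values on all arrays are given for members at least 1.5-fold different in either pair and for Hif1a, Epas1, Hif3a, Vhl and Egln1, and other lists are named by up to 4 genes with the largest shelf difference. Where a paragraph gives values of other genes, they were chosen after their values were seen. A filter on the mean of the 4 arrays replaced one on the higher array of a pair, which favours genes high in 1 group. The mean lessens this and does not remove it. Ndrg1, with a mean of 6.43, would fall below the limit of 6.16 without its knockout shelf array. Fits used limma 3.58.1 in R 4.3.3 (lmFit, eBayes, prior of 7.01 degrees of freedom and SD 0.105) and counts used pandas 2.3.3. Simulated data for the genotype term (11148 genes, 5 runs) gave back 99.8% of changes of 1 and 100% of changes of 2 on the log2 scale. Each change was planted equally in both knockout arrays, so this recovery does not cover a change in 1 pair only. False calls made up 191 of 1190, above the intended 5%. Protein sequences were not used here.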

Additional observations from a re-analysis of the deposited data

Results flagged for a closer look

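On the deposited values, the knockout minus wild-type difference had opposite signs in shelves and head for 12 of the 32 genes. With 1 array per group the difference of the pairs was not tested, and small values may be noise. The share of all genes with opposite signs is not given here, so the count is not read as a trait of these genes. Positive values below mean a higher difference in the shelves. The shelf difference minus the head difference was 1.20 for Egln3, 1.04 for P4ha2, 1.01 for Stc2, 0.88 for Higd1a, 0.74 for Fam162a, 0.71 for P4ha1 and 0.65 for Egln1, all higher in knockout shelves and slightly lower in knockout head. It was 0.49 for Car9, 0.45 for Kdm3a, 0.41 for Mxi1 and 0.35 for Plod2, none of which was 1.5-fold different in either pair. Lox went the other way, with -0.21.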

How the results depend on the processing

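With median centring, cyclic loess, repeated quantile normalization and the brightest cluster of a gene, 12 to 14 of the 29 genes passed 1.5-fold with the knockout higher in the shelves, 3 to 5 passed 2-fold, and 0 passed 1.5-fold in the head. The shelf median stayed between 0.50 and 0.56 over 8 alternatives and the head median between 0.093 and 0.13. With an upper-quartile filter on dim genes, 8 of 16 genes passed 1.5-fold in the shelves, since fewer enter, and 0 of 29 passed a 3-fold limit. With the brightest cluster the shelf difference was 0.71 for Slc2a1 and -0.17 for Hif1a, and the head difference of Ndrg1 was 0.15. The limma genotype effect called 4 genes with cyclic loess, 8 with a mean-variance trend and 1 with the upper-quartile filter, where it called 0 otherwise. None was a hypoxia-inducible gene, whose smallest limma adjusted p lay between 0.0575 and 0.998 over 8 alternatives; the cause was not tested. For shelves against head, the upper-quartile filter called 1909 genes in place of 3370 because fewer were tested. Of the hypoxia-inducible genes, 9 were called with that filter and 9 with no filter, in place of 16. The 16 called genes lost that call in 20 of their alternative fits, Bnip3, Higd1a and Rora most often. The tissue term of the fit already set knockout against wild type within each tissue. The labels carry no replicate numbers for any further pairing. Without any 1 array the fit has no residual degree of freedom, so none was left out.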
